A study of Homo sapiens with 6 samples.

Results

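The genes described here are 10 cytokines and receptors of the interleukin-1 family that epithelial cells can express: the agonists IL1A, IL1B, IL18, IL33 and IL36G, the antagonists IL1RN and IL36RN, and the receptor chains IL1R1, IL1RAP and IL18RAP. They are 10 of the 19740 genes with a symbol, measured by 14 of the 34127 non-control probes of the array, chosen because the RefSeq accession printed for the probe belongs to one of these genes. A single probe represented each of 6 genes, and 2 probes represented each of the other 4 genes. The samples were total RNA of CAL-27, an established human line derived from squamous carcinoma of the tongue, with 1 Agilent 1-colour array for each sample. CAL-27 cells stably transduced with a hairpin that targets XBP-1s (shXBP-1s, n = 3) were compared with cells carrying the control shRNA (shCtrl, n = 3), with no other treatment named. XBP-1s is the transcription factor made from the spliced XBP1 mRNA when the endoplasmic reticulum is under stress. The labels do not say whether the 3 samples of a group came from separate cultures or from 1 transduced pool or clone, so p-values measure only the spread between these samples, which may be technical.

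Interleukin-1 family cytokines act on pairs of receptor chains. IL1A and IL1B bind IL1R1, which then takes up the shared chain IL1RAP, and the complex signals through the adaptor MYD88 to NF-kB and the stress-activated kinases. IL1RN occupies IL1R1 without recruiting IL1RAP and so blocks the agonists. IL33 acts through IL1RL1 with IL1RAP, IL36G through IL1RL2 with IL1RAP, and IL18 through IL18R1 with IL18RAP, while IL36RN is the natural antagonist of the IL36 cytokines. In squamous epithelium IL1A and IL33 are kept as preformed alarm signals, and IL1RN and IL36G are products of keratinocytes.

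Most of the genes lie in 2 runs on chromosome 2, a receptor run and a ligand run. The promoter windows of 3 ligand genes are shown because IL36G and IL1RN had the largest changes among the members well above background on all 6 arrays, and IL1A, at the start of the same run, has the most motif matches among them. Each window is reference sequence from RefSeq in build GRCh38.p14, written 5′ to 3′ on the strand of the gene, with 250 bases before the annotated start and 50 after it. IL36G lies at chr2:112977756-112978055 on the plus strand, the most upstream window of IL1RN at chr2:113117721-113118020 on the plus strand, and the IL1A window at chr2:112784351-112784650 on the minus strand. Capitals mark every match, on either strand, to ACGTG or CCACG, the cores of elements that XBP-1s is known to bind, or to TGANTCA, the AP-1 motif.
IL36G: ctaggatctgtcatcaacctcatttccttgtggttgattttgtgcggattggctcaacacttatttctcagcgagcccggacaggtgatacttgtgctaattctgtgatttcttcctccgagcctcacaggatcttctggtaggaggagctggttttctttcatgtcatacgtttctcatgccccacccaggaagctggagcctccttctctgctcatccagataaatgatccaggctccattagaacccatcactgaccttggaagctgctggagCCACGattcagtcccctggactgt
IL1RN: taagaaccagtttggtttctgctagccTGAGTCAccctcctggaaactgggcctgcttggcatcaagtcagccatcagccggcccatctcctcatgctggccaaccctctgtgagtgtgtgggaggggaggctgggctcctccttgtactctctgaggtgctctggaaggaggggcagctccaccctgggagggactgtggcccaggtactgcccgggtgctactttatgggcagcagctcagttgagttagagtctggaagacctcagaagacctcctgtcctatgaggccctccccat
IL1A: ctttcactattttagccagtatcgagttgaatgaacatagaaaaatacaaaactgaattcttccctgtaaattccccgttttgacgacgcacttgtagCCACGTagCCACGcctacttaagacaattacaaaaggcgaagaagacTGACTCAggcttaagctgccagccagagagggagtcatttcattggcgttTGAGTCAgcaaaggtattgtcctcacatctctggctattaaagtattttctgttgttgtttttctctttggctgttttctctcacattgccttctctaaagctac

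IL36G had a single CCACG match, in the stretch after its start. The IL1RN window had a single AP-1 match far upstream and no match to either XBP-1s core, and the 2 other IL1RN windows had no match. The IL1A window had 2 CCACG matches, the first running on into an ACGTG match read on the other strand, and 2 AP-1 matches. The table held 19 windows for 9 of the 10 genes and was without an entry for IL18. ACGTG was found in 4 of the 19 windows (21.1%) against 21.4% of all 35116 windows of this length, CCACG in 5 (26.3%) against 38.1%, and TGANTCA in 3 (15.8%) against 7.71%. The NF-kB motif, searched on both strands, was found in 1 of the 19 (5.26%), a window of IL36RN, against 11.3%. The 2 cores can overlap, and windows of 1 gene can overlap too, so these shares are descriptions of letters and not of binding.

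On each array the signal is a fluorescence intensity after background subtraction. For the comparison its log2 was taken minus the log2 of the array's 75th percentile, which ranged from 687.4 to 761.3 in shCtrl and from 792.0 to 983.4 in shXBP-1s, so that raw signals of unchanged probes are somewhat higher in shXBP-1s. The targeted gene XBP1 fell from 1.87 ± 0.02 to -0.52 ± 0.02 on this relative log2 scale (SD, n = 3 each), a change of -2.39 (SE 0.04, limma adjusted p = 2.809e-07). Of the 7 squamous epithelial markers, all were well above background on every array, and their summed signal was 58.6 to 60.8 times the 75th percentile in shCtrl and 69.1 to 76.2 times in shXBP-1s, where KRT5, KRT14, KRT17 and DSG3 rose by at least 2-fold. Markers of myeloid, lymphoid, fibroblast and endothelial cells gave summed signals of 4.86 to 6.65, 9.57 to 10.7, 0.945 to 1.04 and 0.215 to 0.275 times the 75th percentile in shCtrl, and of 4.30 to 4.47, 11.3 to 11.6, 0.608 to 0.631 and 0.260 to 0.277 times in shXBP-1s. Of the 5 fibroblast markers, COL1A1, COL1A2, PDGFRB and LUM were well above background on all 6 arrays, where LUM was called higher (1.94) and PDGFRB lower (-1.28), and COL3A1 was not above background on any array. The lymphoid sum came mostly from CD79A, with signals of 6165 to 10538, against 241.1 to 361.9 for PTPRC, the next brightest. The myeloid sum came mostly from CD14, with signals of 1999 to 4356, which fell by 0.84. In the myeloid list CSF1R was called higher (1.04), CD68 rose by 0.65, under 2-fold, and ITGAM gave 0.05. The part of these markers in the results was not tested. In RNA from a whole culture, fewer cells expressing a gene and less RNA per cell cannot be told apart. The arrays carried 2 scan dates, taken here as slides 1 and 2, and no slide identity was used to check this. By this grouping shCtrl 2 and 3 were on slide 1, and shCtrl 1 with all shXBP-1s arrays on slide 2. Within slide 2 the only control is thus shCtrl 1.

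A probe was tested when every array of 1 group or the other showed it well above background, and it was called when its Benjamini-Hochberg adjusted p from limma was below 0.05 over all 27624 tested probes and its change was at least 2-fold. Of the 14 probes, 13 passed the filter, covering 9 of the 10 genes. Called were 3 probes, those of IL36G, IL1RN and IL18RAP, all higher in shXBP-1s, where 2.29% of all tested probes were called higher, 2.61% lower and 4.9% in either direction. At the adjusted p alone, 10 of the 13 were higher and 0 lower, against 18.4% higher, 23.3% lower and 41.7% in either direction among all tested probes. Of the 13, 9 had groups that stood apart without overlap, each time with shXBP-1s above shCtrl. Among all 27624 probes, 23.9% were apart in that direction, 28.5% in the other and 52.4% in all. The median log2 change was 0.48 over the 13 probes and -0.02 over all tested probes. The members and the lists below were chosen with earlier results of these data known, so such shares describe them and test nothing. One member with a call, IL18RAP, passed the filter through the shXBP-1s arrays alone. Precision is limited by the number of arrays, 3 in each group, and no exact permutation test of a single probe can go below p = 0.1.

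**Figure D1:**
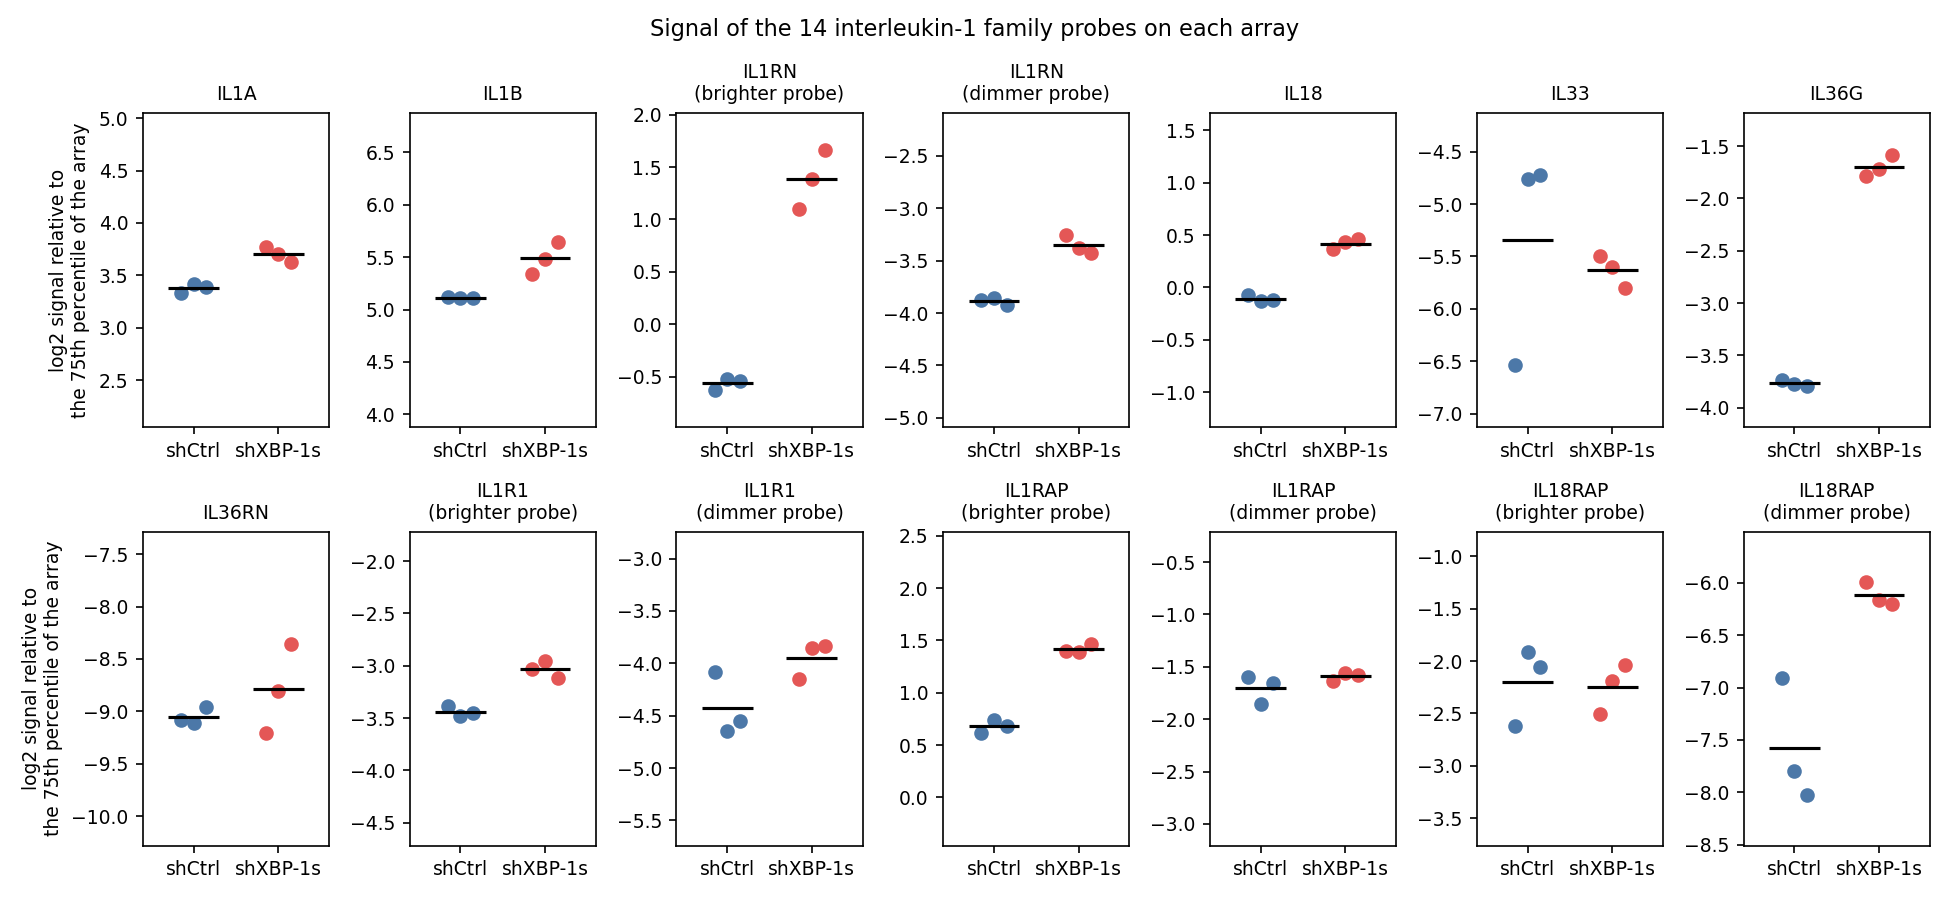
The log2 signal of each of the 14 probes, minus that of the array's 75th percentile (y axis, at its own level but with the same span in every panel), is plotted for the shCtrl arrays (blue, replicates 1 to 3 from left) and the shXBP-1s arrays (red), with group means as black lines. The groups lie far apart for IL36G and the brighter IL1RN probe, and shCtrl 1 stands apart from the other 2 controls for IL33 and for both IL18RAP probes.

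IL36G (NM_019618), an agonist secreted by stressed keratinocytes, had the largest change among the member probes. Its signal was 51.8, 55.8 and 54.7 on shCtrl arrays 1 to 3 and 284.4, 272.2 and 264.7 on shXBP-1s arrays 1 to 3. All 3 shXBP-1s arrays were far above all 3 controls, with little spread in either group. On the relative log2 scale the level rose from -3.76 ± 0.03 to -1.70 ± 0.11 (SD, n = 3 each), a change of 2.07 (SE 0.07, 95% confidence interval 1.90 to 2.24) or 4.19-fold, with a limma adjusted p of 1.664e-06. Within slide 2 the change was 2.04. Normexp background correction, which also adds an offset to every spot, lowered it to 0.77 with an adjusted p of 0.07596, while the median of all tested probes moved to -0.41, and with quantile normalization added it was 1.20.

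IL1RN (NM_173843), the interleukin-1 receptor antagonist, was measured by 2 probes that both rose but by different amounts. Probe A_33_P3246833 gave signals of 444.1, 530.6 and 517.4 in shCtrl and of 2114, 2343 and 2508 in shXBP-1s, so the groups were well apart. Its relative log2 level went from -0.57 ± 0.06 to 1.39 ± 0.28, a change of 1.95 (SE 0.12, 95% confidence interval 1.66 to 2.24) or 3.87-fold with an adjusted p of 1.306e-05, and it was called under every alternative that was run. Probe A_33_P3246829 was much dimmer, with signals of 46.9, 52.5 and 49.7 in shCtrl and of 103.2, 85.9 and 73.8 in shXBP-1s. Its groups did not overlap either, but the change was 0.53 (SE 0.08, adjusted p = 0.0009969), under 2-fold, and it turned to -0.28 under normexp. Within each array the first probe exceeded the second by a log2 difference that grew by 1.42 from shCtrl to shXBP-1s, or 2.67-fold (exact permutation p = 0.1, 2-sided, the smallest possible with 3 arrays against 3). Both probes carry the same accession, so the files do not tell which transcripts each detects.

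IL1A and IL1B, the agonists of IL1R1, were bright on all 6 arrays and rose by small amounts. The IL1A probe (NM_000575) has 10 spots, of which 8 or 9 were used on each array. They averaged 6917, 8126 and 7922 in shCtrl and 13415, 11628 and 9795 in shXBP-1s. On the relative log2 scale IL1A went from 3.38 ± 0.04 to 3.70 ± 0.07, a change of 0.32 (SE 0.05, 95% confidence interval 0.20 to 0.44) or 1.25-fold with an adjusted p of 0.001794. The groups were apart, although part of the raw difference is removed by the scaling of the arrays. The 10 spots of the IL1B probe (NM_000576) averaged 23870, 26406 and 26049 in shCtrl and 39891, 39937 and 39722 in shXBP-1s. IL1B went from 5.11 ± 0.01 to 5.49 ± 0.15, a change of 0.38 (SE 0.08, 95% confidence interval 0.20 to 0.56) or 1.30-fold with an adjusted p of 0.005383. No spot was saturated on any array. Within slide 2 the changes were 0.37 for IL1A and 0.37 for IL1B, and under normexp IL1B was 0.54 with an adjusted p of 0.1302.

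The brighter antagonist probe moved more than the agonists it competes with. The log2 difference between IL1RN probe A_33_P3246833 and the IL1A probe, taken within each array so that the scaling cancels, grew by 1.63 from shCtrl to shXBP-1s, or 3.10-fold. The same difference against IL1B grew by 1.57, or 2.98-fold. Both comparisons were chosen after the values had been seen, with exact permutation p = 0.1 each, 2-sided. The dimmer IL1RN probe changed by 0.53, closer to the 0.32 and 0.38 of the agonists, so the size of the gap depends on the probe taken for IL1RN.

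IL18 (NM_001562), a cytokine that epithelial cells hold as an inactive precursor, was also printed as 10 spots, of which 9 or 10 were used. Its signal was 652.5, 696.5 and 698.8 in shCtrl and 1265, 1210 and 1091 in shXBP-1s, with no overlap. The relative log2 level rose from -0.11 ± 0.03 to 0.42 ± 0.05, a change of 0.53 (SE 0.05, 95% confidence interval 0.42 to 0.64) or 1.44-fold with an adjusted p of 7.047e-05. The change stayed between 0.47 and 0.57 under all alternatives.

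IL33 (NM_033439), the ligand of IL1RL1, was dim, and its groups overlapped. Its signal was 7.40, 28.1 and 28.6 in shCtrl and 21.7, 18.5 and 14.2 in shXBP-1s. The shCtrl 1 array was low and the other 2 controls were above all shXBP-1s arrays. The change was -0.29 (SE 0.45, 95% confidence interval -1.33 to 0.74, adjusted p = 0.637). It was -0.89 (adjusted p = 0.001703) without shCtrl 1, and 0.90 (adjusted p = 0.008916) with slide as a block, where shCtrl 1 is the only control compared, so no direction can be given. IL36RN (NM_012275), the antagonist of IL36G, was not well above background on any of the 6 arrays, with signals between 1.27 and 2.42, and was not tested.

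**Figure D2:**
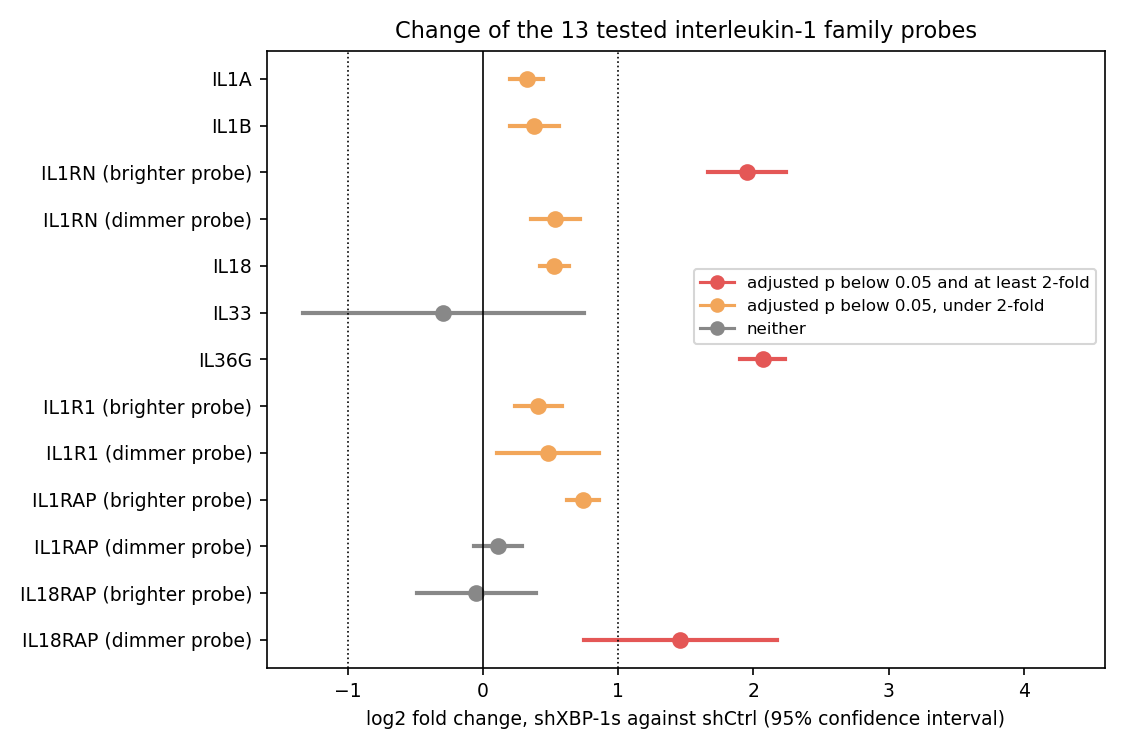
Points give the log2 fold change of shXBP-1s against shCtrl (x axis) for the 13 tested probes, lines their 95% confidence intervals, and dotted lines a change of 2-fold. The intervals of IL36G and the brighter IL1RN probe lie wholly beyond 2-fold, 7 probes pass the adjusted p with a smaller change, and the intervals of IL33, the dimmer IL1RAP probe and the brighter IL18RAP probe include 0.

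Among the receptor chains that are members, IL1RAP, shared by the receptors of IL1, IL33 and IL36 cytokines, had the change with the smallest adjusted p. That change was on the brighter of its 2 probes, was under 2-fold and was not called. The probe for NM_002182, the membrane form, gave signals of 1053, 1275 and 1211 in shCtrl and of 2596, 2347 and 2186 in shXBP-1s, and the groups were well apart. The relative log2 level rose from 0.68 ± 0.06 to 1.42 ± 0.04, a change of 0.74 (SE 0.05, 95% confidence interval 0.62 to 0.85) or 1.67-fold with an adjusted p of 1.751e-05. The probe for NM_134470, a shorter form that lacks the membrane anchor, gave signals of 227.9, 209.9 and 239.3 in shCtrl and of 315.6, 304.2 and 265.4 in shXBP-1s. Its change was 0.11 (SE 0.08, 95% confidence interval -0.07 to 0.29, adjusted p = 0.2838) and its sign turned under normexp, to -0.13. The log2 difference between the 2 probes within an array grew by 0.63, or 1.54-fold (exact permutation p = 0.1, 2-sided). The 2 forms named are those of the accessions the probes carry. The positions of the probes within the transcripts could not be placed, so which forms each detects is not known.

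IL1R1 (NM_000877), the signalling receptor of IL1A and IL1B, was dim and rose slightly on both of its probes, under 2-fold. Probe A_24_P200023 gave signals of 65.8, 68.1 and 68.9 in shCtrl and of 120.4, 115.5 and 91.3 in shXBP-1s, a change of 0.41 (SE 0.07, adjusted p = 0.002978). Probe A_33_P3396389 gave 40.6, 30.5 and 32.2 against 55.5, 62.0 and 55.4, a change of 0.48 (SE 0.16, adjusted p = 0.0479). The groups were apart for the first probe and overlapped on the relative scale for the second, through shCtrl 1. Both directions turned under normexp, to -0.27 and -0.50, with the median of all probes at -0.41. The second probe was 0.14 (adjusted p = 0.5666) with slide as a block, and its adjusted p passed 0.05 without shCtrl 2, shCtrl 3, shXBP-1s 2 or shXBP-1s 3, reaching 0.1397. The changes of the 2 probes differed by -0.07 (exact permutation p = 0.8, 2-sided).

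IL18RAP (NM_003853), the accessory chain of the IL18 receptor, gave different results on its 2 probes. Like NLRP1, described below, it is one of the genes for which the study lists qRT-PCR primers, and those measurements were not analysed here. The study reports that qRT-PCR bore out falls seen on its arrays after XBP-1s knockdown. Whether IL18RAP or NLRP1 was among those genes was not checked here, so neither agreement nor conflict with them is stated. Probe A_33_P3221960 gave signals of 112.1, 202.8 and 181.1 in shCtrl and of 173.1, 196.2 and 192.5 in shXBP-1s. The shXBP-1s arrays lay within the range of the controls, shCtrl 1 being the lowest, and the change was -0.05 (SE 0.19, 95% confidence interval -0.49 to 0.39, adjusted p = 0.8564). Probe A_23_P28334 gave 5.71, 3.44 and 2.89 in shCtrl, where it was well above background on 1 of 3 arrays, and 15.5, 12.5 and 10.7 in shXBP-1s. All shXBP-1s arrays were higher, and the change was 1.46 (SE 0.31, 95% confidence interval 0.75 to 2.17, adjusted p = 0.006204). This call was lost with slide as a block (0.79, adjusted p = 0.06285) and the sign turned under normexp (-0.80). No single direction for IL18RAP can be given from these 2 probes.

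**Figure D3:**
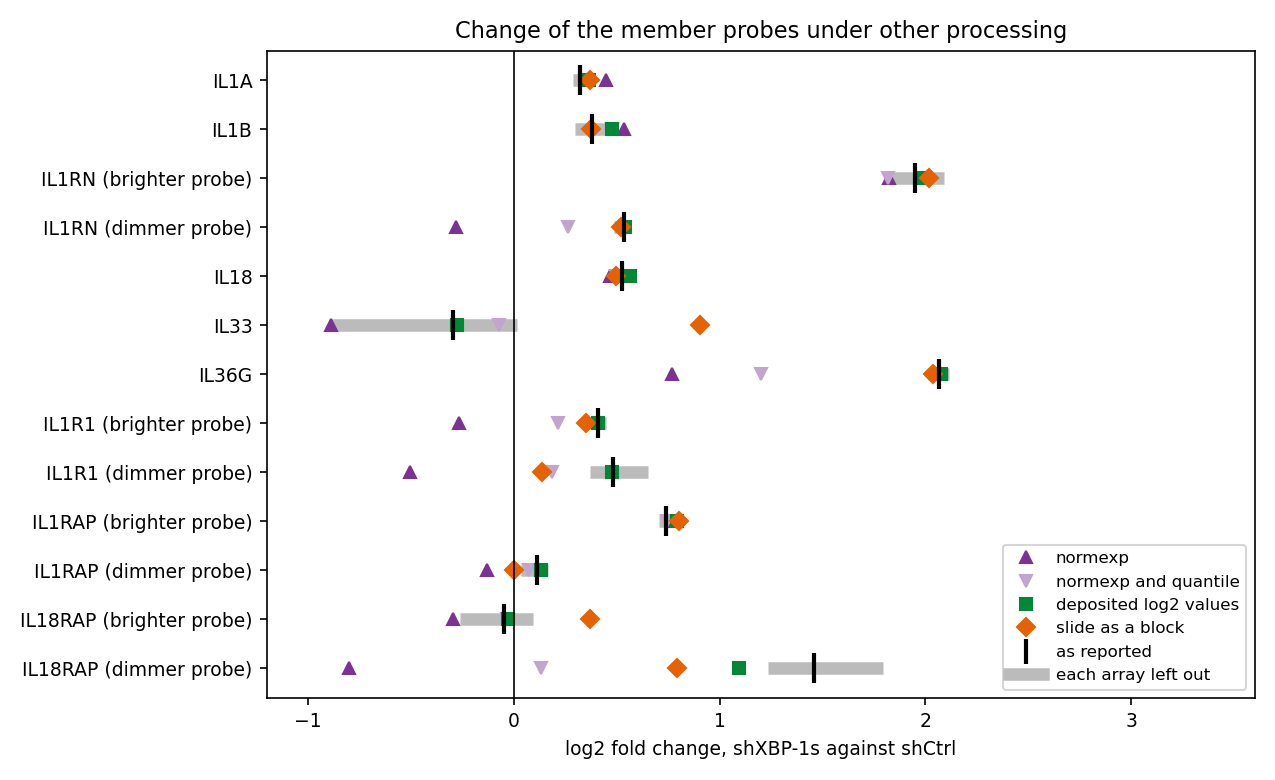
The log2 fold change (x axis) of each tested member probe is drawn as reported (black bar), under 4 other ways of processing (symbols) and over the range obtained when each array is left out in turn (grey). IL1A, IL1B, IL18, the brighter IL1RN probe and the brighter IL1RAP probe stay close to the reported value, while 5 of the dimmer signals cross 0 under normexp and IL33 spans 0.

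The other 12 genes of the family were all tested, each by its brightest probe, and 2 were called, both higher and both receptors, where 2.3% of all 16821 tested genes were called higher and 2.88% lower. IL1R2, a decoy receptor that binds IL1A and IL1B without signalling, had signals of 26.5, 21.2 and 24.6 in shCtrl and of 248.5, 252.1 and 265.4 in shXBP-1s. Its relative log2 level rose from -4.94 ± 0.23 to -1.80 ± 0.21, a change of 3.14 (SE 0.14, adjusted p = 3.674e-06) or 8.81-fold. IL1RL1, the receptor of IL33 that is also made in a soluble decoy form, had signals of 6.36, 11.0 and 7.83 in shCtrl and of 102.8, 105.4 and 103.2 in shXBP-1s. The groups were far apart for both genes. IL1RL1 rose from -6.49 ± 0.33 to -3.09 ± 0.16, a change of 3.39 (SE 0.18, adjusted p = 6.092e-06) or 10.5-fold. Under normexp the changes of IL1R2 and IL1RL1 were 0.95 and 0.43 and no longer passed the test, and under normexp with quantile normalization they were 1.49 and 1.10 and passed it.

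The change of the decoy IL1R2 exceeded that of the signalling receptor IL1R1. The log2 difference between IL1R2 and IL1R1 probe A_24_P200023 within an array grew by 2.73, or 6.64-fold, from shCtrl to shXBP-1s (exact permutation p = 0.1, 2-sided, a pair chosen after its values had been seen). SIGIRR, an inhibitory receptor of the family, fell by 0.62 on the log2 scale (adjusted p = 0.0002123), and IL18BP, which captures free IL18, fell by 0.39 (adjusted p = 0.02286), a call of the adjusted p that was lost with slide as a block (-0.33, adjusted p = 0.1461), under normexp (adjusted p = 0.4509) and without shCtrl 3, shXBP-1s 2 or shXBP-1s 3 (adjusted p = 0.08778, 0.08236 and 0.06688). IL18R1, the ligand-binding chain of the IL18 receptor, rose by 0.45 on its brightest probe (adjusted p = 0.0008298), but its 2 other probes gave -0.60 (adjusted p = 0.001062) and 0.23 (adjusted p = 0.07825). IL1RL2, the receptor of IL36G, gave 0.03 and did not pass the test. Neither did the ligands IL36A (0.09), IL36B (-0.08), IL37 (0.14) and IL1F10 (0.17) nor the receptor-like genes IL1RAPL1 (-0.18) and IL1RAPL2 (0.06).

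In the RefSeq gene order of chromosome 2, the 6 receptor genes IL1R2, IL1R1, IL1RL2, IL1RL1, IL18R1 and IL18RAP follow each other with 0 other protein-coding genes between them. The 9 ligand genes from IL1A to IL1RN form a second such run. By brightest probe, 4 of the 6 tested receptor genes and 4 of the 8 tested ligand genes were higher at the adjusted p, and 0 were lower in either run, against 18.9% higher and 27.5% lower among all tested genes. Members already counted above make up part of both runs. The counts depend on the probe taken. IL18R1, counted as higher, had other probes at -0.60 (limma adjusted p = 0.001062) and 0.23 (adjusted p = 0.07825). IL18RAP, not counted as higher, was called higher on its dimmer probe (1.46). Under normexp the counted probes of IL1R1 and IL18R1 turned to -0.27 and -0.035. The genes called by brightest probe, IL1R2 and IL1RL1 in the first run and IL36G and IL1RN in the second, were not neighbours of each other. Between IL36G and IL1RN lie IL36A, IL36B and IL1F10, which did not pass the test, and IL36RN, which was not above background.

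**Figure D4:**
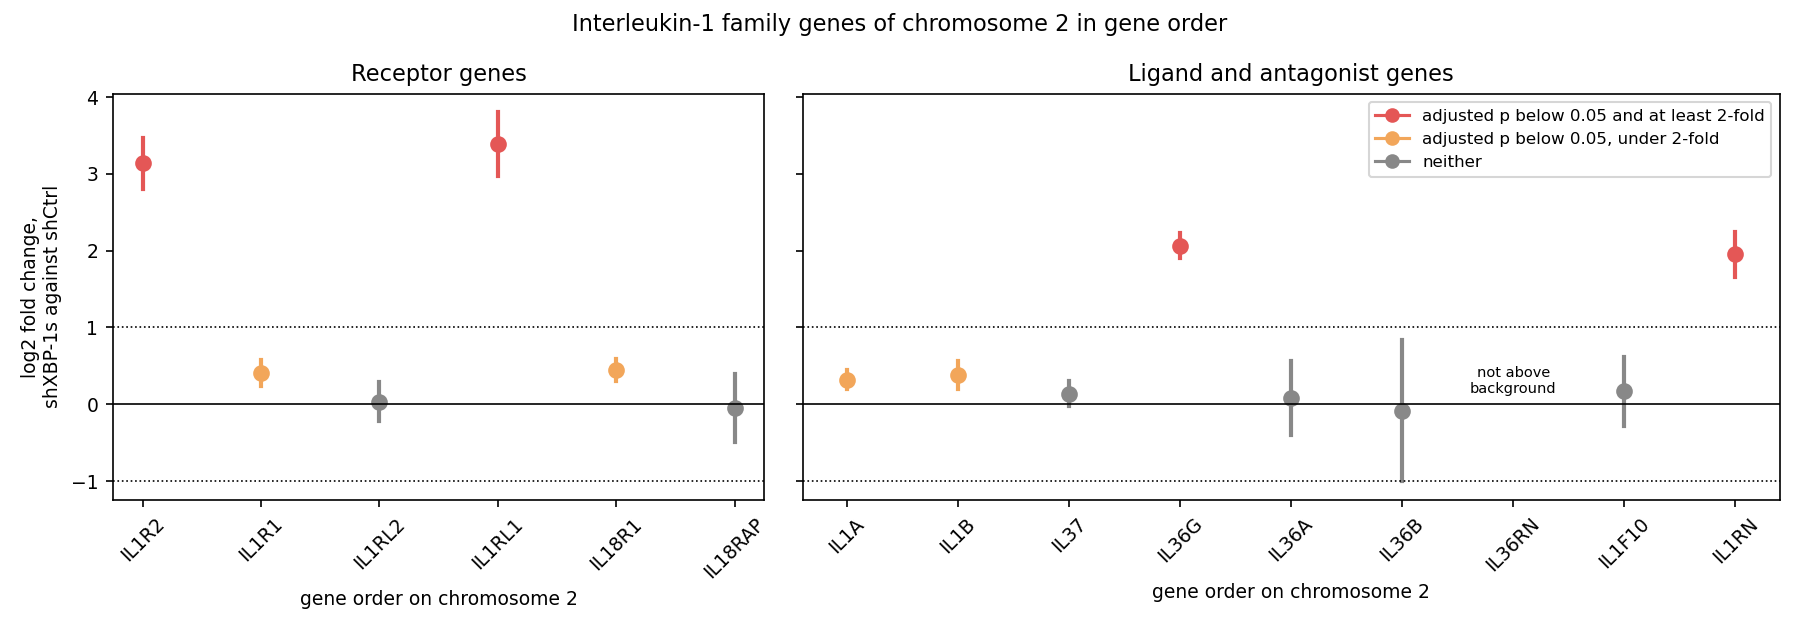
The log2 fold change of shXBP-1s against shCtrl (y axis) with its 95% confidence interval is shown for the family genes of chromosome 2. Each gene is drawn by its brightest probe, in gene order (x axis, not to scale), receptors on the left and ligands on the right. IL1R2 (3.14), IL1RL1 (3.39), IL36G (2.07) and IL1RN (1.95) stand beyond 2-fold, each next to genes with changes under 2-fold.

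Of 16 tested genes that process or release the cytokines, 0 were called, where 5.18% of all tested genes were called. At the adjusted p, 3 were higher and 4 lower, against 18.9% higher, 27.5% lower and 46.4% in either direction among all tested genes, shares close to those of the list, with a median log2 change of -0.09 against -0.04 over all tested genes. CASP1, the protease that cleaves the IL1B and IL18 precursors, fell by 0.56 (SE 0.07, adjusted p = 0.0003389), with signals of 8777, 8178 and 8782 in shCtrl and of 7577, 7137 and 6450 in shXBP-1s. NLRP1, an inflammasome sensor of epithelium, was the largest rise of the list at 0.98 (1.98-fold, adjusted p = 0.0001152), just under the 2-fold threshold, and was called under 6 alternatives that kept that threshold, a gene named after its value was seen. Of 20 tested genes that signal below the receptors, 1 was called (5%, against 5.18% of all tested genes). At the adjusted p 6 were higher and 4 lower, against the same 18.9%, 27.5% and 46.4% in either direction. The median log2 change of this list was 0.11, against -0.04 over all tested genes. The called gene was NFKBIA, the inhibitor of NF-kB that NF-kB itself induces, whose change was -1.03 (SE 0.07, adjusted p = 1.842e-05), close to the 2-fold threshold, which it missed under quantile normalization (-0.99), under normexp and without shCtrl 2. The adaptor MYD88 rose by 0.26 (SE 0.05, adjusted p = 0.004678), a change that was 0.09 (adjusted p = 0.6677) under normexp.

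Genes known to respond to IL1 or IL36 cytokines in epithelium moved in both directions. Of 28 tested, 9 were called (32.1%, against 5.18% of all tested genes), 4 higher and 5 lower. Among all tested genes 2.3% were called higher and 2.88% lower. At the adjusted p 11 of the list were higher and 11 lower, against 18.9%, 27.5% and 46.4% in either direction among all tested genes. The median log2 change of the list was 0.17, against -0.04 over all tested genes. Because the list was chosen with earlier results of these data known, its shares and median are a description only. Higher were MMP10, a stromelysin, with a change of 3.31 (SE 0.19, adjusted p = 7.912e-06), and the neutrophil chemokine CXCL8 with 1.25 (SE 0.07, adjusted p = 7.199e-06). CXCL8 signals were 4326, 4754 and 4587 in shCtrl and 13155, 13387 and 12769 in shXBP-1s. Lower were IL17C, an epithelial cytokine, with -2.65 (SE 0.14), and TNF with -1.13 (SE 0.06). The acute-phase genes SAA2 and SAA1 gave -1.75 and -1.28, and because they are near-identical copies their probes may share signal. IL17C signals fell from 884.4, 1531 and 1279 in shCtrl to 249.4, 237.0 and 209.5 in shXBP-1s. CSF2 and MMP1 were also called higher and CSF3 lower. Under normexp the calls of CXCL8, MMP10, IL17C, SAA1 and SAA2 remained and those of TNF, CSF2, MMP1 and CSF3 were lost. CXCL6 was not tested because it was well above background on 1 of 6 arrays.

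**Figure D5:**
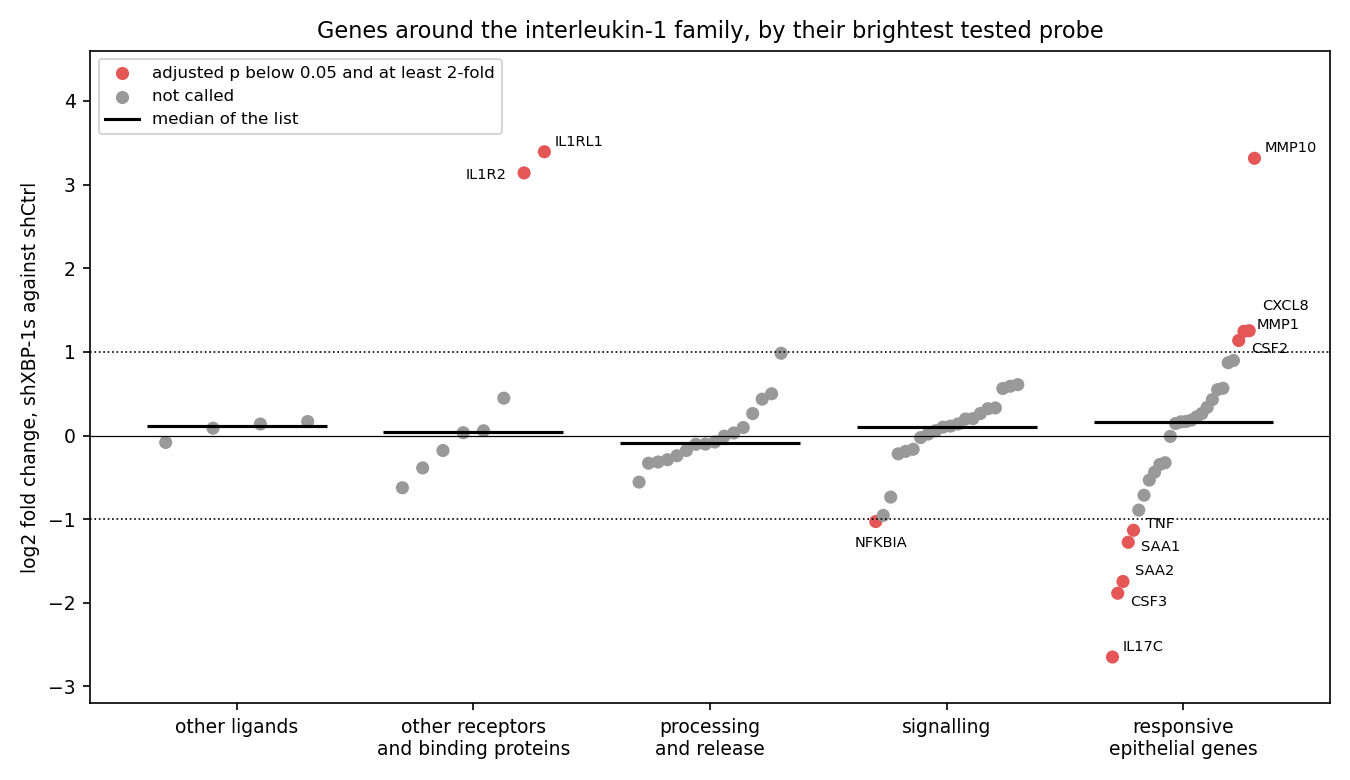
Each point is the log2 fold change (y axis) of 1 tested gene, by its brightest probe, in 5 lists of genes around the family (x axis), red where called and named, grey where not, with the median of each list as a black line and dotted lines at 2-fold. The medians lie between -0.09 and 0.17, and the responsive list has called genes on both sides of 0.

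The genes whose profile over the 6 arrays was closest to that of IL36G, by the root mean square difference of log2 values centred on each gene's mean, included TM4SF1 (0.0562) and HSD17B2 (0.0683). TM4SF1, a cell-surface membrane protein, had signals of 1691, 1738 and 1810 in shCtrl and of 8367, 8521 and 8552 in shXBP-1s. This likeness rests on 6 arrays and mainly on the size of the difference between the groups.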

How the data were processed

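RNA of CAL-27 cells was measured on 6 Agilent 1-colour arrays, shXBP-1s 1 to 3 and shCtrl 1 to 3, grouped by the sample labels. The authors deposited, per array, the intensity of each spot after background subtraction by Feature Extraction 11.0.1.1, not normalized between arrays. A deposited table of log2 values has an identical median on every array. The submitters' processing notes name RMA, the steps are not described, and the table was used only as an alternative. The labels describe a NimbleGen labelling procedure, whereas the files are of an Agilent array.

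The 75th percentile of each array over non-control spots was subtracted from log2 intensity, flagged spots (230 to 377 per array) were left out, and the mean was taken over the spots of each probe. A probe counted as well above background where over 50% of its spots did. Without a value on some array were 19 of the 34127 probes. The 27624 that every array of 1 group showed above background were fitted in R 4.3.3 with limma 3.58.1 (lmFit, eBayes with trend, no covariate, 2-sided). The percentile setting replaces a normalization that the study's methods do not state. The fit was tested on simulated data.

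Symbols came from RefSeq accessions matched to GRCh38.p14, for 25771 probes. A gene in a list was represented by its brightest tested probe. Named genes are XBP1, all members, the tested other family genes, up to 6 called genes of each list with the smallest p, and MYD88, CASP1 and CXCL8. Also named are genes whose profile over the arrays was closest to that of IL36G, of which 1 is not reported here. Other names were chosen after their values were seen. The members and lists were chosen with earlier results of these data known. Alternatives were normexp (on the median spot signal, offset 50), the deposited log2 values, quantile normalization, other filters on dim probes, no minimum fold, no variance trend, the methods' t-test (adjusted or not), slide (told by scan date alone) or replicate number as a block, a mean over each gene's probes, and leaving out each array. The array annotation names an older genome build, so coordinates are given only for the RefSeq windows.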

Additional observations from a re-analysis of the deposited data

How the results depend on the processing

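Over all tested probes the count of calls, 1354, was 473 under normexp, 357 under normexp with quantile normalization, 11516 with no minimum fold, and 1253 to 1695 with each array left out. Called member probes, 3, were 1 under normexp (IL1RN), 2 under normexp with quantile normalization, with slide as a block and with only probes above background on all 6 arrays (IL1RN and IL36G each time), and 10 with no minimum fold. Other family genes, 2, were 0 under normexp and 5 with no minimum fold. Processing genes, 0, were 1 (NLRP1, whose change lies near 2-fold) under quantile normalization, on the deposited values and with slide as a block, 0 to 1 with each array left out (NLRP1, without shCtrl 2, shCtrl 3 or shXBP-1s 3), and 7 with no minimum fold. Signalling genes, 1, were 0 under normexp, normexp with quantile normalization, quantile normalization and the deposited values, 0 to 1 with each array left out (0 without shCtrl 2), 3 by the mean over probes (NFKBIA, TAB1 and TAB3) and 10 with no minimum fold. NFKBIZ took the place of NFKBIA with slide as a block and without shXBP-1s 1. Responsive genes, 9, were 5 under normexp, 5 when quantile normalization followed it, and 22 with no minimum fold. The methods' t-test called 3 member probes, with and without adjustment.

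Normexp moved the median of all tested probes to -0.41 and turned the sign of the second IL1RN probe (-0.28), both IL1R1 probes (-0.27 and -0.50), the second IL1RAP probe (-0.13), the second IL18RAP probe (-0.80), IL36A (-0.85), IL37 (-0.45), IL1F10 (-0.72), IL1RL2 (-0.74), IL18R1 (-0.035) and IL1RAPL2 (-0.80), and IL1RL2 was -0.011 with quantile normalization added. With quantile normalization in place of the 75th percentile after the same normexp step, that median was -0.0006 and each of these signs other than that of IL1RL2 was as reported. Smaller than reported were then the second IL18RAP probe (0.13), the second IL1RN probe (0.26), both IL1R1 probes (0.22 and 0.18) and IL36A (0.0012). With slide as a block the sign turned for IL33 (0.90), the first IL18RAP probe (0.37), IL36B (0.70) and IL1F10 (-0.055). Leaving out 1 array turned signs only of probes that did not pass the test, whose lowest and highest values were -0.89 and 0.014 for IL33 (turned without shCtrl 3), -0.26 and 0.093 for the first IL18RAP probe (turned without shCtrl 2, shCtrl 3 or shXBP-1s 1), -0.10 and 0.21 for IL36A (turned without shCtrl 1 or shXBP-1s 1), -0.48 and 0.19 for IL36B (turned without shCtrl 2, shCtrl 3, shXBP-1s 1 or shXBP-1s 3), -0.061 and 0.28 for IL1F10 (turned without shCtrl 3), -0.039 and 0.10 for IL1RL2 (turned without shXBP-1s 2), and -0.10 and 0.24 for IL1RAPL2 (turned without shCtrl 2 or shXBP-1s 2). The cause of these turns, under normexp or otherwise, was not tested.

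The deviations of samples of equal replicate number from their group means had correlations of -0.02, 0.12 and -0.12. Those of unequal number ranged from -0.13 to 0.12, so no consistent pairing was seen. Deviations from a mean of 3 arrays depend on each other, so these values cannot exclude a pairing. With the replicate block, 1381 probes were called, and the counts were 3 for members, 2 for other family genes, 0 for processing, 1 for signalling and 9 for responsive genes. At the adjusted p alone the block lost the second IL1R1 probe (adjusted p = 0.07296) and IL18BP (adjusted p = 0.05033). Dim signals, such as IL33 and IL18RAP, limit what 3 arrays per group can show.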
